A study of Rattus norvegicus with 16 samples.

Results

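The comparison described here sets 4 hypothalamus RNA libraries from third-generation (F3) control rats against 4 from first-generation (F1) control rats, 8 of the 16 libraries of the study. Its members were taken from the sample labels alone, as the control libraries of the F3 and F1 generations, and no expression value was used to choose them. Every animal was a female Wistar rat aged 21 days, and the tissue is labelled hypothalamus (MBH-PoA). The F1 controls carried vehicle exposure in utero, and the F3 controls carried it as an ancestral exposure, in both cases through the maternal lineage. The other 8 libraries came from the matching lineages given a mixture of endocrine disrupting chemicals (EDC), with 4 F1 EDC and 4 F3 EDC rats. In the protocol the mixture was given in food, beginning 2 weeks before gestation and ending with lactation. Litters are not given in the labels, so p-values measure only the spread between these libraries.

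The preoptic area and mediobasal hypothalamus hold the neurons that drive gonadotropin release and those that regulate feeding, growth, stress responses and body temperature. Multigenerational exposure designs compare an F1 animal, itself exposed in the womb, with an F3 animal that descends from the exposed mother without direct contact. In the vehicle lineages no chemical mixture was given in either generation. The contrast of their controls thus measures how far libraries of the 2 generations lie apart without the mixture. Numbers in the file names give all F1 libraries 1 submission number and lane and all F3 libraries another. The protocol speaks of 4 libraries per lane, which 8 libraries with 1 lane mark do not match, so it is not known whether control and EDC libraries of a generation shared a lane. Values that compare control with EDC lineages may then hold a step between lanes, which cannot be told apart. Every value below holds both the step between generations and the step between these runs, which cannot be told apart.

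Counts assigned to genes ran from 5655354 to 19249536 in the F1 controls and from 10987632 to 28768727 in the F3 controls. The share of reads mapping to several places spanned 19.9% to 43.2% in F1 and 16.5% to 43.3% in F3, so the groups overlapped on it. Reads on the strand opposite to the gene made up 1.51% to 1.62% of stranded gene counts in F1 and 1.70% to 1.87% in F3, without overlap. Unmapped reads did not overlap either, at 5.29% to 9.45% in F1 and 4.44% to 5.21% in F3. Genes with at least 1 count numbered 16398 to 17286 in F1 and 17667 to 18477 in F3. With every library thinned to 5655354 gene counts they numbered 16374 to 16614 in F1 and 16571 to 16919 in F3, which overlap. For opposite-strand reads, unmapped reads and genes at full depth the two-sided exact permutation p was 0.0286, the smallest that 4 against 4 allows, and 0.105 after adjustment over 11 library measures. These measures move with generation, and their part in the results below was not tested. The gene IDs could not be paired with symbols, so cell type markers and gene lists were not checked here.

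The 4 F3 controls were more alike than the 4 F1 controls, and had more gene counts on average, at 21613047 against 13262068. The part of depth in this was not tested. Across 15366 genes, the Pearson correlation of log2 CPM (gene counts scaled to library size) between pairs of F3 controls ran from 0.972 to 0.980, and between pairs of F1 controls from 0.951 to 0.966. Pairs of 1 F1 and 1 F3 control ran from 0.944 to 0.964, so they overlapped the pairs within F1. These are correlations across genes, which are not independent replicates. The biological coefficient of variation was 20.6% in F1 control and 17.1% in F3 control. The first principal component of the 8 libraries held 29.9% of the variance and placed all F1 controls between -52.3 and -22.0 and all F3 controls between 28.3 and 36.7. F1 control replicate 4, the shallowest library, lay at the far end of it, and at -50.9 on the second component (18.8% of the variance), where the other 7 lay between -22.7 and 39.9.

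A total of 4233 of 15366 genes tested (27.5%) passed an adjusted p of 0.05 between F3 and F1 controls by the quasi-likelihood method of edgeR, and these are referred to as called. Of the genes tested, 2250 (14.6%) were higher in F3 and 1983 (12.9%) were lower. The higher genes moved further: their median log2 fold change was 0.62, against -0.43 for the lower genes and -0.02 over all genes tested. In bulk tissue, fewer cells of a type and less RNA per cell cannot be told apart in any of these differences. With upper quartile scaling the balance turned, with 2042 genes higher and 2474 lower, and the median over all genes moved to -0.06. For 3872 genes (25.2%) the 4 F3 values lay wholly above the 4 F1 values (2090 genes, 13.6%) or wholly below them (1782 genes, 11.6%). This held for 81.9% of the higher genes, 75.1% of the lower genes and 4.85% of the genes not called.

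Large changes were more often increases than decreases from F1 to F3. Among called genes, 472 (3.07% of those tested) were over 2-fold higher in F3 and 105 (0.683%) were over 2-fold lower. The lower count was 52 with a filter at 1 log2 CPM and 56 without the libraries over 40% multimapping, where the higher counts were 432 and 559. At over 4-fold the counts were 48 higher and 18 lower. Small changes were more often downwards: 1152 called genes fell by 0.25 to 0.5 on the log2 scale and 738 rose by that much. The step from 0.5 to 1 held 965 genes that rose and 600 that fell. Among genes that fell, 58.1% lay in the 0.25 to 0.5 class, against 32.8% of those that rose.

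**Figure D1:**
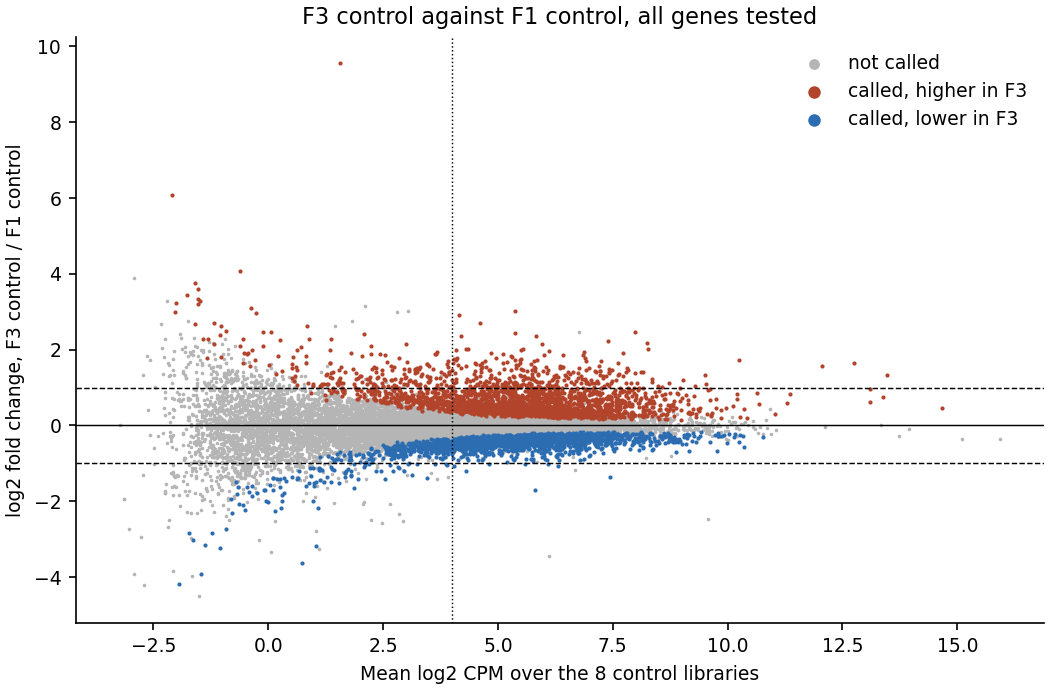
Each point is 1 of 15366 genes, with its mean log2 CPM over the 8 control libraries on the horizontal axis and its log2 fold change of F3 over F1 control on the vertical axis. Dashed lines mark 2-fold and the dotted line a level of 4; to its right 269 called genes lie above the upper dashed line and 8 below the lower one.

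Large increases and large decreases lay at different expression levels. The level of a gene was taken as its mean log2 CPM over F1 and F3 controls, each group weighted equally. Genes over 2-fold higher had a median level of 4.61 log2 CPM, whereas genes over 2-fold lower had a median level of 1.05. Among the 8196 genes at a level of 4 or more, 269 were called and over 2-fold higher and 8 were called and over 2-fold lower. All 269 had F3 values above every F1 value, and 7 of the 8 had F3 values below every F1 value. Over all 8196 genes at that level the groups did not overlap in 36.3%. The 269 and the 8 genes were chosen on the same libraries, so this is not a separate test. Their median log2 fold change was 1.27 and -1.07. Over the other settings the count of higher genes at this level lay between 239 and 295 and that of lower genes between 3 and 11, so the imbalance kept its direction in every one of them. The lower count is the less settled of the 2, at 3 without F3 control replicate 1 and 5 without F1 control replicate 2.

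The excess of large increases was present in each range of expression from 2 log2 CPM upwards. Between 2 and 4, increases over 2-fold were called in 110 of 3527 genes and decreases of that size in 18. From 4 to 6 the numbers were 152 and 5 of 5041 genes, and from 6 to 8 they were 98 and 3 of 2657. At 8 and over, 19 of 498 genes rose by over 2-fold, and the 1 gene fitted as over 2-fold lower did not pass the test. Genes over 2-fold higher thus made up 2.17% to 3.82% of every range, from the lowest to the highest. Genes over 2-fold lower made up 2.54% of the genes from 0 to 2 log2 CPM, 0.510% from 2 to 4, 0.0992% from 4 to 6 and 0.113% from 6 to 8. Below 2 log2 CPM the directions were close to even, with 93 genes over 2-fold higher and 79 over 2-fold lower among 3643. Of all 105 genes over 2-fold lower, 75.2% lay in that low range, as did 19.7% of the 472 genes over 2-fold higher.

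The tails of the distribution of fold changes showed the same lean at high expression, but its middle did not. At a level of 4 or more the quartiles of the log2 fold change were -0.22 and 0.24, around a median of -0.01. The 5th percentile there was -0.49 and the 95th was 0.86. Under 2 log2 CPM the same percentiles were -1.33 and 1.29. Counting genes by fitted fold change alone, without a test, 272 of the genes at 4 or more had risen past 2-fold and 11 had fallen past it. Under 2 log2 CPM the same count gave 307 and 334.

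**Figure D2:**
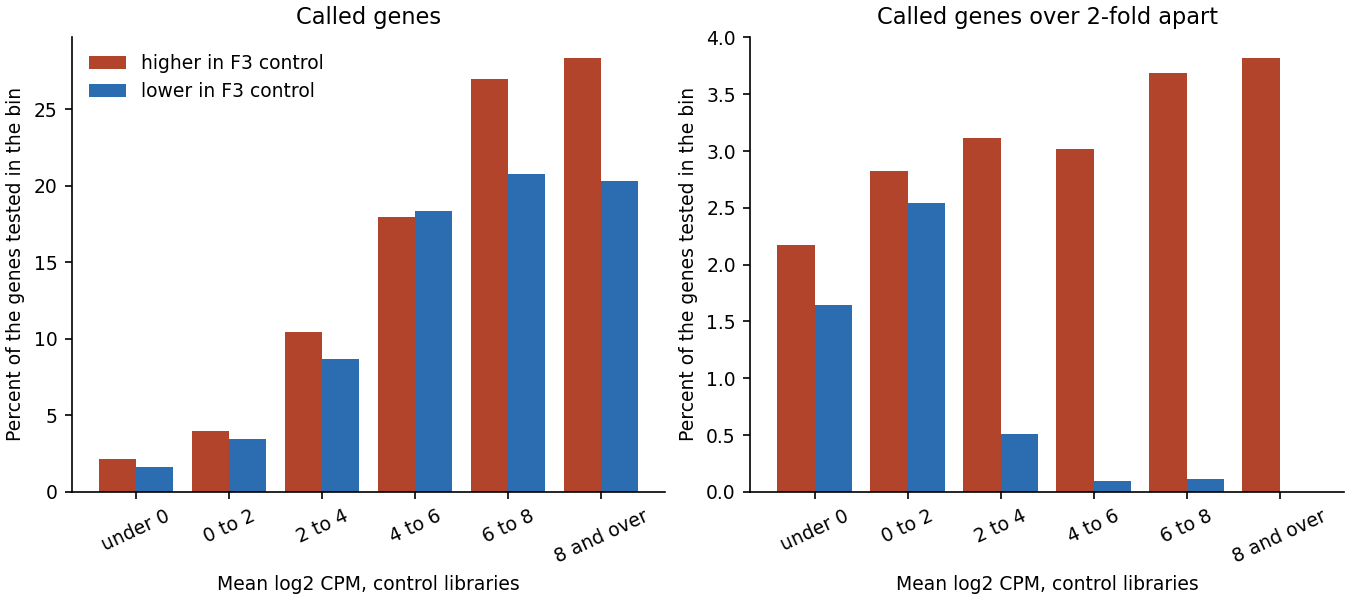
Bars give the percent of the genes tested in each range of mean log2 CPM that were called higher or lower in F3 control (left), or called and over 2-fold apart (right). In the left panel the higher bars rise to 28.3% in the top range, and the lower bars reach 20.8% from 6 to 8 and 20.3% above it. In the right panel the higher bars stay between 2.17% and 3.82%, while no lower bar from 4 upwards exceeds 0.113%.

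The share of genes called rose with expression as the error of each gene's fold change fell. It was 3.82% of 1520 genes under 0 log2 CPM, 7.44% from 0 to 2, 19.2% from 2 to 4, 36.3% from 4 to 6, 47.8% from 6 to 8 and 48.6% at 8 and over. The median standard error of the log2 fold change went from 0.71 in the lowest range to 0.08 in the highest. The median absolute log2 fold change went the other way along the first 4 ranges, from 0.60 under 0 to 0.39, 0.27 and 0.23, and was 0.22 and 0.23 in the last ranges. A gene under 0 log2 CPM that was not called may differ by an amount that these libraries could not resolve. In the range from 4 to 6, genes called higher (906) and lower (924) were nearly equal in number, and at 6 and over the higher genes were the more numerous (717 against 552, then 141 against 101). With upper quartile scaling the lower genes were the more numerous in the range from 6 to 8 too (646 against 691).

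In terms of reads, the called genes that rose held 21.6% ± 1.22 of the counts of tested genes in F1 control and 33.3% ± 2.05 in F3 control (SD, n = 4). Those that fell held 17.4% ± 1.53 and 12.6% ± 0.490. The 472 genes over 2-fold higher went from 3.01% ± 0.256 to 7.62% ± 0.644 of counts, and the 105 over 2-fold lower from 0.122% ± 0.0177 to 0.0479% ± 0.0100. These shares describe genes selected on the same libraries and are not a separate test. Genes tested but not called held 60.9% ± 2.70 of counts in F1 control and 54.1% ± 2.39 in F3 control (SD, n = 4). Summed over genes, the called increases came to 137197 CPM and the called decreases to -40721 CPM. CPM were scaled with TMM factors, so their sum over all genes tested differed, at 1007755 in F1 control and 1064623 in F3 control. The excess of increases in CPM holds this difference in scale.

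The most abundant genes carried much of this movement, and not all of it was larger than the spread between rats. The summed absolute difference between the groups was 255003 CPM, of which 53.9% fell on the 498 genes at 8 log2 CPM or more and 1.04% on the 3643 genes under 2. These shares follow abundance in large part. The 498 genes held 487295 of 1007755 summed CPM in F1 control and 517920 of 1064623 in F3 control. The 3643 genes held 6029 and 6459 CPM. The 10 genes with the largest difference in CPM made up 30.8% of the summed absolute difference, and 182 genes made up at least 50%. Of those 10, 7 were higher in F3, and all 7 were called, with a summed gain of 48325 CPM. The other 3 were lower, with a summed difference of -30089 CPM, and none of them was called. The 10 most abundant genes of a library held 13.9% to 24.7% of its gene counts in F1 control, the lowest being replicate 2, and 18.2% to 22.3% in F3 control (two-sided exact permutation p = 0.914, adjusted 0.971, n = 4).

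Individual genes that could be named only by their Ensembl IDs illustrate both directions. For each direction the 2 IDs of smallest p are given, out of the called genes at 0 log2 CPM or more whose groups did not overlap, a rule met by 1815 genes that rose and 1475 that fell. ENSRNOG00000010488 stood at 71.4, 59.5, 75.6 and 61.2 CPM in F1 control replicates 1 to 4 and at 199.8, 235.6, 216.2 and 223.0 CPM in F3 control replicates 1 to 4. The rule required groups without overlap, and here the gap between them was far larger than the spread in either group. Its mean went from 66.9 ± 7.80 to 219 ± 14.9 CPM (SD, n = 4). The log2 fold change was 1.71 with an SE of 0.08 (edgeR adjusted p = 2.47e-12).

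ENSRNOG00000056118 showed nearly the same levels, at 67.4, 64.2, 67.8 and 56.6 CPM in F1 control and 207.5, 240.5, 214.1 and 213.6 CPM in F3 control. The mean rose from 64.0 ± 5.20 to 219 ± 14.7 CPM (SD, n = 4), and its log2 fold change was 1.77 with an SE of 0.09 (edgeR adjusted p = 2.47e-12). Both genes lay in the range from 6 to 8 log2 CPM, and both were over 3-fold higher in F3.

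The genes that fell with the smallest p changed by less than 2-fold. ENSRNOG00000024186 was at 107.7, 111.1, 105.4 and 114.0 CPM in F1 control and at 54.7, 57.7, 56.9 and 63.8 CPM in F3 control. Its log2 fold change was -0.91 (SE 0.07, edgeR adjusted p = 1.34e-09). ENSRNOG00000008555 was at 79.6, 77.0, 68.7 and 75.5 CPM in F1 control and at 33.8, 41.2, 41.4 and 39.5 CPM in F3 control. Here the log2 fold change was -0.95 with an SE of 0.08 (edgeR adjusted p = 4.27e-09). In both, as the naming rule required, every F3 control lay below every F1 control. Across all other settings and with each control library left out, each of the 4 genes kept its direction and its call.

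**Figure D3:**
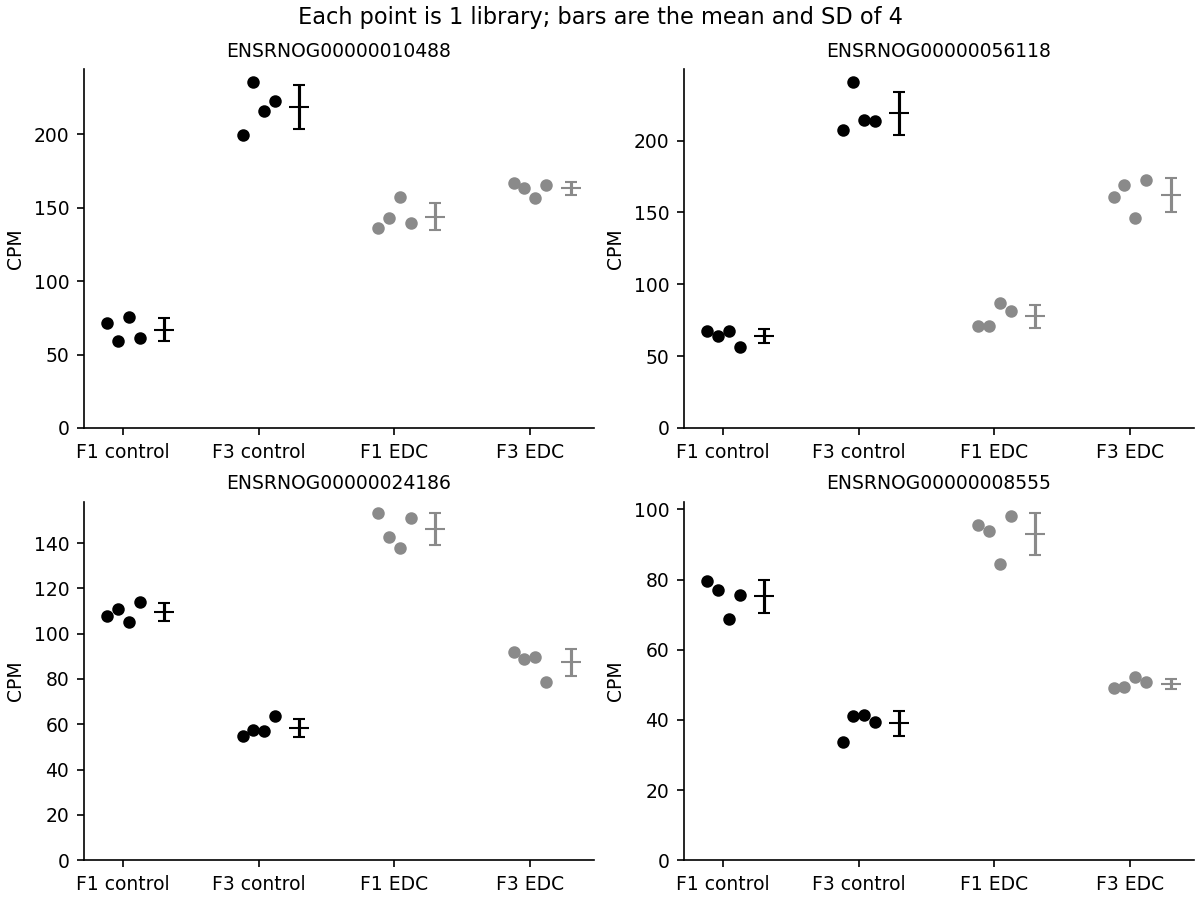
Points are CPM values of single libraries for 4 Ensembl gene IDs in the F1 control, F3 control, F1 EDC and F3 EDC groups, with the mean and SD of each group of 4 beside them. The upper genes rise from about 60 to 76 CPM or 57 to 68 CPM in F1 control to about 200 CPM or more in F3 control; the lower genes fall by less than 2-fold.

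The largest fold change among called genes rested on 1 library. One gene, with a fitted log2 fold change of 9.55 and an SE of 2.59 (edgeR adjusted p = 0.0151), had 15, 11, 11 and 1 counts in the F1 controls. It had 56901, 18, 8 and 330 counts in F3 control replicates 1 to 4. Replicate 1 thus held 98.5% of the group's summed CPM, at 2123 CPM, and the groups overlapped. Without that library the log2 fold change was 3.87 and the gene was not called (edgeR adjusted p = 0.104). It was the only one of the 4233 called genes in which 1 library held over 75% of the summed CPM of the higher group. This gene was picked out after its values were seen. Among genes over 2-fold higher the groups overlapped in 26 of 472, and among genes over 2-fold lower in 31 of 105.

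Whether the shift was shared by all libraries was checked on libraries left out of the test. Each control library was left out in turn, the genes were called from the other 15 libraries, and the left-out library was then read on those that were also among the 15366 genes tested above. The left-out library thus entered the filter on low counts and the scaling of the log2 CPM values, but not the calls. Between 1922 and 2277 such genes were called higher and 1605 to 1903 lower. The 4 left-out F3 controls lay on the F3 side of the midpoint between the group means in 80.4% to 97.5% of the genes called higher and in 81.0% to 88.1% of those called lower. The left-out F1 controls lay on the F1 side in 81.6% to 82.9% and in 73.3% to 86.6%. In the genes called higher, the median difference from the F1 mean was 0.53 to 0.71 log2 units in left-out F3 controls and 0.01 to 0.10 in left-out F1 controls. In genes called lower it was -0.43 to -0.36 in F3 and -0.10 to 0.02 in F1. The weakest of the F3 values in genes called higher belonged to replicate 4, the shallowest F3 control.

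Large changes were read in the left-out libraries in the same way, and no test compared increases with decreases. Of the genes called over 2-fold higher without it, each F3 control lay on the F3 side in 93.8% to 97.6% and each F1 control on the F1 side in 83.9% to 87.9%. Of the genes called over 2-fold lower without it, the share was 78.1% in F3 control replicate 1, 83.3% in replicate 2, 62.0% in replicate 3 and 55.0% in replicate 4, and the F1 controls lay on the F1 side in 62.3% to 69.0%. The sets lay at different expression levels, with medians of 4.61 and 1.05 log2 CPM in the fit of all libraries.

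**Figure D4:**
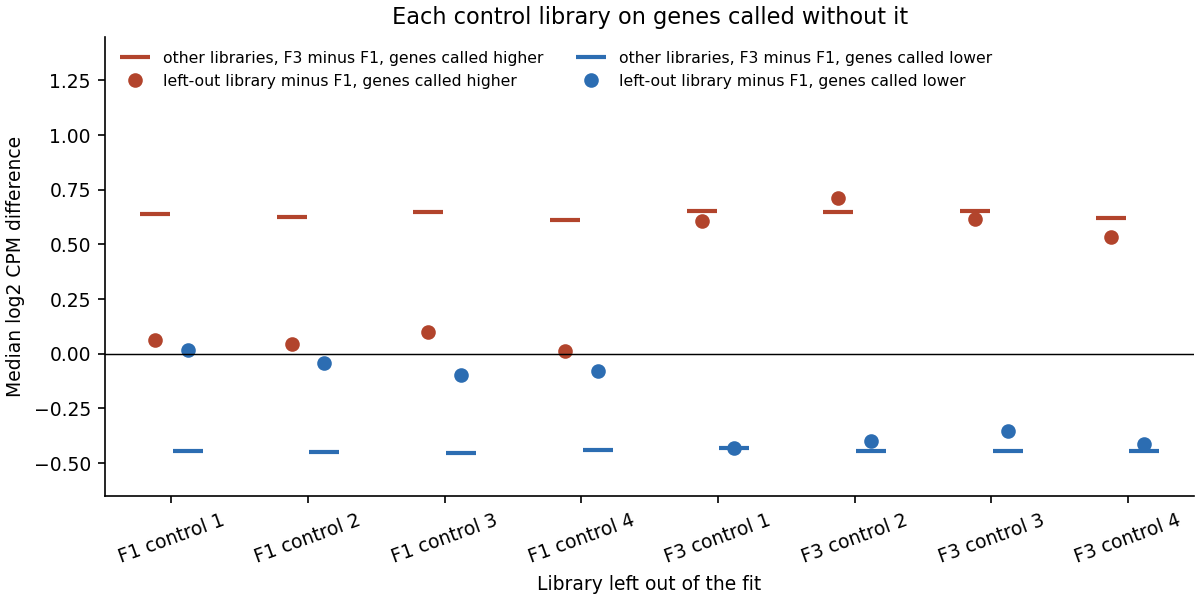
For each control library, circles show its median log2 CPM difference from the F1 control mean over genes called without it, and dashes the same difference for the F3 libraries in the fit. Red marks genes called higher and blue those called lower; circles of the F1 libraries lie between -0.10 and 0.10, and circles of the F3 libraries lie near their dashes.

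The same genes were read in the EDC lineages, which share no library with the controls. Between F3 EDC and F1 EDC, 8216 genes (53.5%) were called, 4146 higher (27.0%) and 4070 lower (26.5%). Genes that rose between the controls were called higher between the EDC groups in 1089 of 2250 cases (48.4%) and lower in 458 (20.4%). Genes that fell between the controls were called lower in 718 of 1983 cases (36.2%) and higher in 487 (24.6%). The median log2 fold change of F3 EDC over F1 EDC was 0.26 in the first set, -0.09 in the second and 0.01 over all genes tested. The run marks separate F1 from F3 in the EDC groups as well, so a shared direction cannot be told apart from a shared run. Multimapping reads made up 41.8% to 51.6% in the F1 EDC libraries and 15.7% to 44.4% in the F3 EDC libraries. With that share as a covariate 6660 genes were called between the EDC groups.

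The genes with large changes between the controls were set beside all genes tested, or all genes in a range of level, in the EDC groups. This is a description with no test. Of the 472 genes over 2-fold higher, 293 (62.1%) were called higher in F3 EDC than in F1 EDC and 54 (11.4%) lower, with a median log2 fold change of 0.68, against 27.0% and 26.5% of all genes tested. Of the 269 among them at 4 log2 CPM or more, 208 (77.3%) were called higher and 24 (8.92%) lower, with a median of 0.75. Of the 8 genes over 2-fold lower between the controls at that level, 6 had a log2 fold change above 0 between the EDC groups. Of all 8, 5 (62.5%) were called higher and 1 (12.5%) lower, and the median over the 8 was 0.58. Over all 8196 genes at that level, 36.2% were called higher and 29.8% lower, with a median of 0.04. The 105 genes over 2-fold lower gave 29 called lower (27.6%) and 11 called higher (10.5%). Among all 3643 genes under 2 log2 CPM, where 75.2% of them lay, 19.1% were called lower and 10.3% higher.

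**Figure D5:**
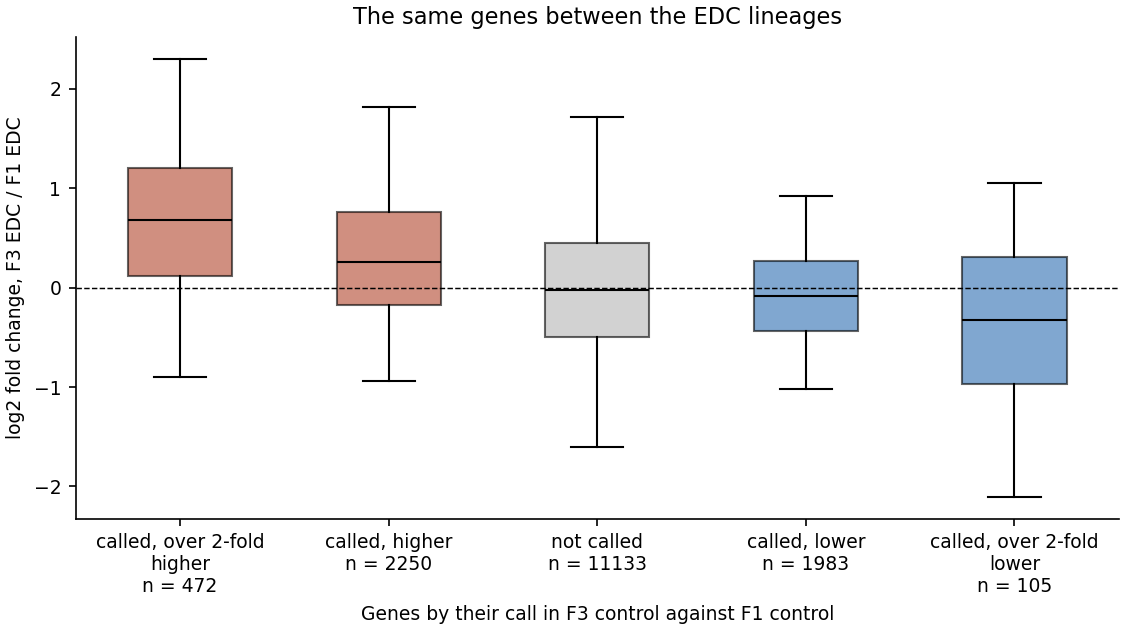
Boxes give the log2 fold change of F3 EDC over F1 EDC for genes grouped by their call between the controls, with the median as a line, quartiles as the box and the 5th and 95th percentiles as whiskers. Medians step down from 0.68 in the genes over 2-fold higher to -0.32 in those over 2-fold lower, and the not-called genes sit at -0.03.

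The generation difference was not the same in the EDC lineages for many genes. The difference of the 2 contrasts, tested as an interaction term, was called for 6699 genes (43.6%), among them 1392 of the 2250 genes that rose between the controls (61.9%) and 1141 of the 1983 that fell (57.5%). Both lists, and the named IDs, were chosen on a contrast that enters the interaction. Those shares and the interaction values of the named IDs are thus a description. With the multimapping share as a covariate the interaction was called for 5885 genes. ENSRNOG00000010488 was at 144 ± 9.19 CPM in F1 EDC and 163 ± 4.58 CPM in F3 EDC (SD, n = 4), both between the control groups. Its log2 fold change between the EDC groups was 0.18 (SE 0.08, edgeR adjusted p = 0.0573), and the interaction was -1.52 (edgeR adjusted p = 4.10e-10).

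ENSRNOG00000056118 rose in both lineages. It went from 77.6 ± 8.09 to 162 ± 11.8 CPM between the EDC groups (SD, n = 4), with log2 fold change 1.06 and an SE of 0.08 (edgeR adjusted p = 2.90e-10). The interaction of -0.71 (edgeR adjusted p = 3.52e-05) marks a smaller rise than between the controls. Both genes that fell between the controls also fell between the EDC groups. ENSRNOG00000024186 went from 146 ± 7.15 to 87.3 ± 5.95 CPM and its log2 fold change was -0.74 with an SE of 0.07 (edgeR adjusted p = 5.72e-09). ENSRNOG00000008555 went from 93.0 ± 5.93 to 50.3 ± 1.47 CPM and its log2 fold change was -0.89 with an SE of 0.08 (edgeR adjusted p = 1.90e-09). Their interaction terms were 0.17 (edgeR adjusted p = 0.181) and 0.06 (edgeR adjusted p = 0.702) and were not called.

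Genes counted in every control of 1 generation and in none of the other were few. Many more were absent from 1 group and counted in only some libraries of the other. At full depth 13542 genes had 0 counts in every F1 control and 12535 in every F3 control, of which 11723 had 0 counts in all 8. At full depth 54 genes had 0 counts in every F1 control and at least 1 count in every F3 control, and 1 gene showed the reverse. With all libraries thinned to the same gene count this number was 13, and 7 genes had 0 counts in every F3 control and at least 1 in every F1 control. The most counts summed over a group while the other group stood at 0 were 20 for F3 and 47 for F1 at the thinned depth. By contrast, 14197 genes were counted in all 8 control libraries at that depth.

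Counts on the strand opposite to each gene, left out of the comparison above, were tested in the same way, an addition made after seeing the data. They totalled 89679 to 317082 per F1 control and 209439 to 497319 per F3 control. Of 2393 genes tested, 160 (6.69%) were called by edgeR. F3 control was the higher in 92 of them and the lower in 68. Among the 1901 genes also tested on their own strand, 20 were higher and 5 lower on both strands. Another 8 were higher on the opposite strand and lower on their own, and 5 the other way round. A further 34 were higher and 38 lower on the opposite strand, while their own strand was not called. Over all 15366 genes tested on their own strand, 14.6% were higher and 12.9% lower, and the shares among the 1901 are not given here. Overlapping neighbours and antisense transcripts could not be told apart without an annotation. The share of opposite-strand reads was itself higher in every F3 control than in any F1 control, and its part here was not tested.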

How the data were processed

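The deposited files hold read counts per Ensembl gene, 32883 IDs per library, in the layout that STAR writes, with 4 summary lines left out of library sizes. In the controls those lines held 16.5% to 43.3% (multimapping), 17.7% to 22.3% (no feature), 4.44% to 9.45% (unmapped) and 0.272% to 0.834% (ambiguous) of reads. The deposited counts are whole numbers, not normalized. Per the submitters' processing notes, Trimmomatic 0.33, TopHat2 2.1 and build rn6 were used; the sources used here give no STAR version or annotation. EDC groups follow the source names, since their titles read Control with the letter E. The fourth column (1 strand) was used, which held at least 52.5 times the counts of the third. All 16 libraries were fitted with edgeR 4.0.16 in R 4.3.3 (limma 3.58.1) as 4 group means, with TMM factors, filterByExpr (count minimum 10, 15366 genes), the robust quasi-likelihood F test and Benjamini-Hochberg adjustment, two-sided. Log2 CPM used a prior count of 2, and the standard error was the absolute fold change over the square root of F. Library measures were compared with exact permutation tests over 4 against 4 libraries. None of the 32883 IDs was paired with a symbol, because the gene table (47357 genes, GRCr8) has 0 Ensembl IDs, so gene lists, markers and sequences were not used. The procedure was tested on simulated data. Other settings were DESeq2 1.42.0, voom with quality weights, RLE or upper quartile scaling, other filters, controls alone, a replicate block, unstranded counts, multimapping share, thinning and leaving out each control library. Groups follow the labels, but this comparison, its members, lists and tests were chosen with earlier results of these data known. IDs are named by the rule given with them.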

Additional observations from a re-analysis of the deposited data

Results flagged for a closer look

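The generation contrast differed between the control and EDC lineages by the interaction test in 6699 genes, and in 2 of the 4 named IDs. The IDs were named for their p in the control contrast, which enters the interaction, so their interaction values are a description. For ENSRNOG00000010488 the log2 fold change of F3 over F1 in the EDC groups was lower than that in the controls by an interaction of -1.52, and for ENSRNOG00000056118 by -0.71. For both, all 4 F3 controls lay above all 4 F3 EDC libraries, and all 4 F1 EDC libraries lay above all 4 F1 controls. Choosing IDs with low F1 controls and high F3 controls favours this order, and its share over all genes was not counted. It may also hold a step between lanes, which cannot be told apart. For ENSRNOG00000010488 the F1 means were 66.9 CPM (control) and 144 CPM (EDC), and the F3 means 219 CPM (control) and 163 CPM (EDC).

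The share of reads in no annotated feature in F1 control replicate 2, 21.8%, stood apart from the other F1 controls by Dixon's criterion. The other 3 lay between 18.5% and 18.8%, and the F3 controls between 17.7% and 22.3%. This was 1 of 42 groups of 4 values examined, and chance gives about 1 in 20.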

How the results depend on the processing

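Over 12 other settings and 8 fits that each left out 1 control library, 241 counts of called genes stayed within 1.5 times the value given and 15 moved further. The total called ran from 3321 (without libraries over 40% multimapping, which leaves 2 F1 and 3 F3 controls) to 4604 (DESeq2). Genes called and over 2-fold lower (105) fell to 52 with a filter at 1 log2 CPM and 56 without the high multimapping libraries. Genes called higher under 2 log2 CPM (117) were 77 with the controls fitted alone, 64 after thinning and 69 with voom. Genes called lower there (99) were 51 with the filter at 1 log2 CPM, 60 with controls alone, 40 without the high multimapping libraries and 51 after thinning, and ran from 65 to 109 over left-out libraries, lowest without F3 control replicate 1. Genes at 4 log2 CPM or more called over 2-fold lower (8) were 5 with no filter, 4 with controls alone and 5 without the high multimapping libraries, and ran from 3 to 11 over left-out libraries. Fewer genes (12886) entered the fit with the filter at 1 log2 CPM, and fewer libraries the controls-alone, multimapping and left-out fits. Fewer counts entered the thinned fit. The cause of the moved counts was not tested for any setting.

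Of the 472 genes over 2-fold higher, 424 were still called after thinning and 425 without the high multimapping libraries. For the 105 over 2-fold lower these numbers were 59 and 39. The interaction of ENSRNOG00000008555 was never called and turned to -0.00555 (adjusted p = 0.978) with the multimapping covariate, and ran from -0.00538 to 0.0992 over left-out libraries. Differences between the groups in library measures were not called in any fit. The smallest p that the exact permutation test allows is 0.0286. After adjustment over 11 measures a call needs many of them at that p together, so the lack of calls does not show that the libraries were alike. Over left-out libraries the sign of the difference turned for the share of the 10 most abundant genes (-2.78 to 0.823 percentage points) and the 100 most abundant (-1.71 to 1.498). It also turned for multimapping reads (-9.53 to 0.358) and reads in no feature (-0.0107 to 1.53). The replicate numbers did not pair the samples: deviations of same-numbered F1 and F3 controls correlated at -0.12 to 0.09, and with the replicate number as a block 4162 genes were called. Depth limits the genes under 2 log2 CPM most.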
